A study of Mus musculus with 4 samples.

Results

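Expression of 39 genes of mitochondrial and peroxisomal fatty acid oxidation was examined by RNA-seq in the epididymal adipose tissue, a visceral fat depot, of diet-induced obese mice. The genes were taken by symbol from a list of the pathway, and all 39 had a row among the 24421 genes measured. All mice were wild-type (WT) male C57BL/6J mice. The weight cycling group, WC1, began at the age of 8 weeks with 8 weeks of high-fat diet (HFD), which were followed by 2 weeks of standard diet (SD) and 6 more weeks of HFD. The control group, Ctrl, was 10 weeks old at the start and received HFD without a break for 14 weeks. Both groups therefore had 14 weeks of HFD in all and were 24 weeks old at the end, but the WC1 mice started younger, so age at first HFD and the SD interval cannot be told apart. There were 2 libraries per group, and the labels do not say whether a library came from 1 animal.

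Fatty acid oxidation shortens acyl chains, bound to coenzyme A (CoA), by repeated rounds of dehydrogenation, hydration, a further dehydrogenation and thiolysis, each round releasing acetyl-CoA. In mitochondria, long chains enter through the carnitine shuttle, and electrons from the initial dehydrogenation pass through the electron transfer flavoprotein to the respiratory chain. Peroxisomes handle very long and branched chains, which they shorten and pass on, and their initial oxidation step gives electrons to oxygen and forms hydrogen peroxide. In white adipose tissue most fatty acid is stored or exported, and the peroxisome proliferator-activated receptors (PPARs) are known to act on many genes of the pathway as dimers with RXR at DR1 elements, a pair of AGGTCA units in the same direction with 1 base between them.

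Promoter sequences are shown for members that hold a stretch close to this element, since PPARs are the textbook regulators of the pathway. RefSeq promoters of build GRCm38.p6, 250 bases before to 50 bases after the start, were found for 32 of the 39 genes. The motif AGGTCANAGGTCA was searched on both strands. A stretch with at most 2 mismatches among its 12 fixed letters was present in 3 of the 32 genes (9.38%), against 1190 of 27025 genes in the whole promoter set (4.4%). With at most 1 mismatch the counts were 0 of 32 and 174 of 27025 (0.644%). The 3 stretches lie in Echs1 at chr7:140116482-140116514 (minus strand), Etfa at chr9:55512298-55512330 (minus strand) and Slc25a20 at chr9:108662132-108662164 (plus strand), and are printed 5′ to 3′ in the direction of the gene. Capitals mark the whole stretch aligned to the motif, the base between the units and the 2 mismatched letters included.
Echs1: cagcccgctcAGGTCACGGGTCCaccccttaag
Etfa: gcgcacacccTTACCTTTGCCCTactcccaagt
Slc25a20: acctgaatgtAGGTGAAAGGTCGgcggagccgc
The match of Etfa is on the strand opposite to the gene. A single AGGTCA unit, which overlaps the longer motif in Echs1, was present in 6 of the 32 genes (18.8%), namely Acadm, Acadvl, Cpt1a, Echs1, Phyh and Scp2, against 18.1% of all genes. A letter match is a description of the sequence, and binding was not measured.

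Hadha and Hadhb, which encode the alpha and beta subunits of the mitochondrial trifunctional protein, start head to head on chromosome 5, with starts at 30154980 (minus strand) and 30155253 (plus strand), 273 bases apart. The stretch that both promoter windows share, at chr5:30155003-30155230, is shown on the plus strand because a single short region lies upstream of both genes of this enzyme. It is in lower case throughout, as neither promoter held a searched motif.
Hadha-Hadhb: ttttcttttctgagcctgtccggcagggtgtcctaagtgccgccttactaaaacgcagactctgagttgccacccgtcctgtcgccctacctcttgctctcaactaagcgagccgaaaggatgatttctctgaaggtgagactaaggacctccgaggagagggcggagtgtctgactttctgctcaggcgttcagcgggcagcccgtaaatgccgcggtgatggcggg

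The libraries held between 61465029 and 90965297 reads assigned to genes. Levels are given as CPM, the deposited reads relative to a rescaled library size. A minimum of 0.5 CPM in 2 or more libraries left 14106 genes, which were tested by limma on log2(CPM + 1), with Benjamini-Hochberg adjustment over all of them. All fold changes are WC1 minus Ctrl, on that log2 scale, with their standard error (SE). Genes with an adjusted p under 0.05 are called higher or lower. All 39 genes passed the filter, and the lowest count of any of them in any library was 186 reads. Their median level was 100.3 CPM, against 24.5 CPM for all tested genes.

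Fatty acid oxidation genes were higher in WC1 than in Ctrl across most steps of the pathway. Of the 39 genes, 23 (59.0%) were called higher and 0 were called lower by limma, against 10.2% of all tested genes called higher, 7.71% called lower and 17.9% called in either direction. At an unadjusted p under 0.05, 25 of the 39 were higher and 0 were lower, a threshold that 5329 of the 14106 tested genes passed in either direction, and the numbers called lower by edgeR and DESeq2 were also 0. The median log2 fold change was 0.37, with a range from -0.19 to 1.26, against -0.02 over all tested genes. Most changes were therefore small, and among the called genes the fold change reached 2 only for Ehhadh and Abcd2. In 35 genes both WC1 libraries lay above both Ctrl libraries, which held for 32.7% of all tested genes. In 3 genes (Decr2, Acox3 and Acot8) both lay below in CPM, although Acox3 did not in TPM, which held for 36.6% of all tested genes, and in Cpt1a the groups overlapped, so that 38 of the 39 genes (97.4%) did not overlap in either direction, against 69.3% of all tested genes.

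**Figure D1:**
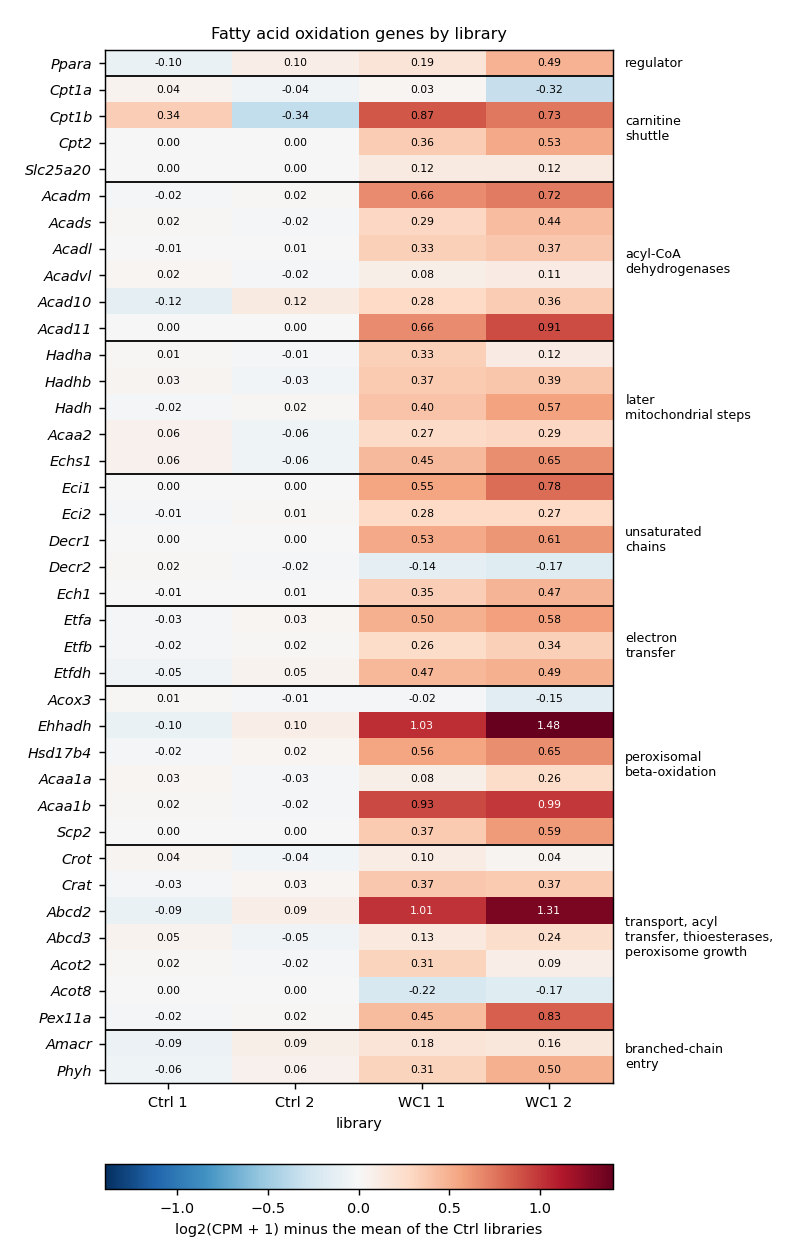
Level of each of the 39 fatty acid oxidation genes (rows, ordered by role) in each of the 4 libraries (columns), as log2(CPM + 1) minus the mean of the 2 Ctrl libraries. Red is above and blue below that mean, and the WC1 columns are red for most rows, most deeply for Ehhadh and Abcd2, and on this scale blue in both WC1 libraries only for Decr2, Acox3 (not lower in TPM) and Acot8.

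The calls rest on 2 libraries per group. A fit that leaves out a library has 1 library in that group, so its spread comes only from the other group. Calls from such fits are not comparable with those of the main fit. The median log2 fold change of the 39 genes was 0.34 without Ctrl 1 and 0.42 without Ctrl 2. It was 0.44 without WC1 1 and 0.33 without WC1 2, against 0.37 with all 4 libraries. Positive fold changes numbered 36 of 39 without WC1 2 and 35 in each of the other fits.

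**Figure D2:**
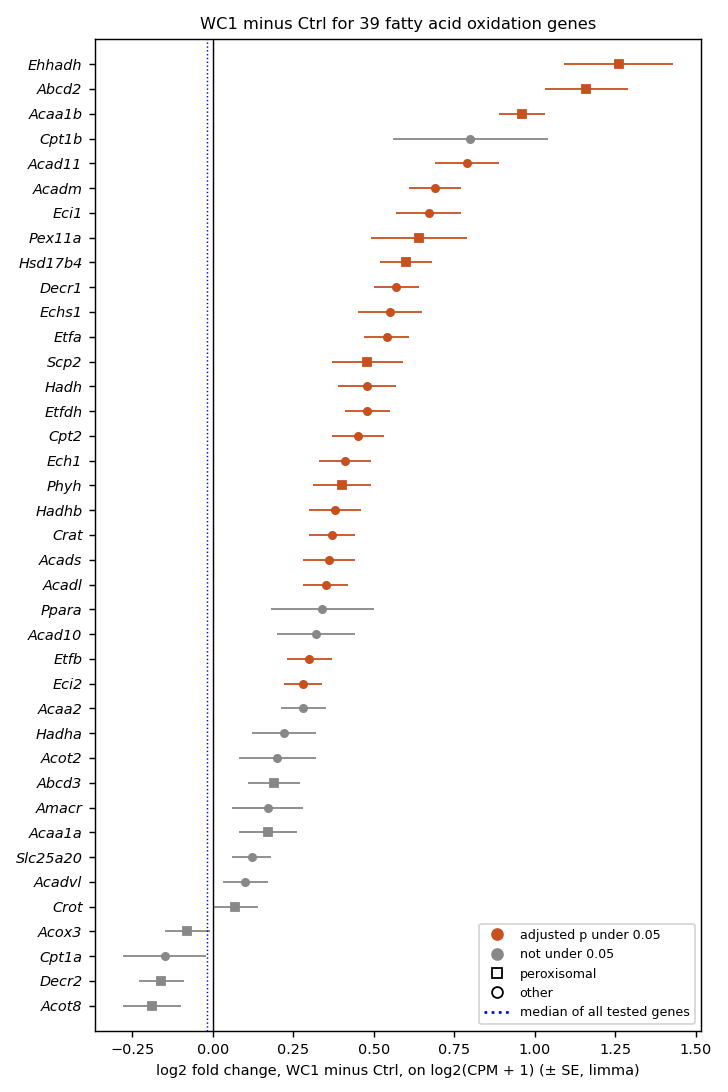
Log2 fold change (WC1 minus Ctrl, on log2(CPM + 1), points, with SE bars from limma) of the 39 genes, sorted by size, with called genes in orange and peroxisomal genes as squares. The fold changes run from -0.19 for Acot8 to 1.26 for Ehhadh, and 35 of the 39 lie above 0; the dotted line is the median of all tested genes, -0.02.

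Ppara, the nuclear receptor best known for control of this pathway in liver, was the least abundant of the 39 genes. It was at 2.72 and 3.25 CPM in Ctrl and 3.52 and 4.58 CPM in WC1, and its log2 fold change of 0.34 ± 0.16 was not called (adjusted p = 0.19, limma).

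In the carnitine shuttle, 1 of 4 genes was called higher. Cpt2, the inner membrane transferase that releases acyl-CoA into the matrix, was at 66.1 and 66.2 CPM in Ctrl and 85.3 and 96.0 CPM in WC1, and rose by 0.45 ± 0.08 (adjusted p = 0.030, limma). Both WC1 libraries were above both Ctrl libraries. Cpt1a and Cpt1b encode the outer membrane transferase, the controlled entry step, in the form known from liver and the form known from muscle. Cpt1b was at 8.25 and 4.77 CPM in Ctrl and 12.3 and 11.2 CPM in WC1 (log2 fold change 0.80 ± 0.24, adjusted p = 0.078, not called), with a wide spread between the Ctrl libraries, and 78.6% of its 50-base windows also occur in the predicted gene Gm44502, so its count is uncertain. Cpt1b was called higher by DESeq2 (0.87, adjusted p = 0.012) and by limma with a replicate block (0.80, adjusted p = 0.033). Its value was 1.14 without Ctrl 1 and 0.46 without Ctrl 2. Cpt1a had a log2 fold change of -0.15 ± 0.13 (adjusted p = 0.46, limma) and was lowest in WC1 2. Without WC1 1 its value was -0.32 and without WC1 2 it was 0.03, each fit having 1 WC1 library. Slc25a20, the carnitine-acylcarnitine carrier, had 0.12 ± 0.06 (adjusted p = 0.22).

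Of the 6 acyl-CoA dehydrogenases, which catalyse the initial dehydrogenation and differ in chain length preference, 4 were called higher. Acadm, for medium chains, was at 263 and 271 CPM in Ctrl and 422 and 442 CPM in WC1, and rose by 0.69 ± 0.08 (adjusted p = 0.015, limma). Acad11, a less studied member of the family on chromosome 9 (104063724 to 104127656, mm10), was at 61.7 and 61.4 CPM in Ctrl and 97.9 and 117 CPM in WC1, a rise of 0.79 ± 0.10 (adjusted p = 0.018). Those were the largest changes of the family. Acads, for short chains, was at 90.5 and 88.2 CPM in Ctrl and 109.6 and 121 CPM in WC1 (0.36 ± 0.08, adjusted p = 0.040, limma). Acadl, for long chains, was at 241 and 244 CPM in Ctrl and 305 and 315 CPM in WC1 (0.35 ± 0.07, adjusted p = 0.037). In each of these genes the Ctrl libraries lay close together and the WC1 libraries above them. Acadvl, for very long chains, had a log2 fold change of 0.10 ± 0.07 (adjusted p = 0.34) and was not called. Acad10, at 6.95 and 8.41 CPM in Ctrl and 9.51 and 10.1 CPM in WC1, was not called either (0.32 ± 0.12, adjusted p = 0.13), and 16.8% of its windows are shared with Acad12.

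Of the 5 genes of the later mitochondrial steps, 3 were called higher. Echs1, the short-chain enoyl-CoA hydratase, was at 65.9 and 60.4 CPM in Ctrl and 86.8 and 99.5 CPM in WC1 and rose by 0.55 ± 0.10 (adjusted p = 0.027, limma). Hadh, the hydroxyacyl-CoA dehydrogenase for medium and short chains, was at 163 and 168 CPM in Ctrl and 218 and 245 CPM in WC1 (0.48 ± 0.09, adjusted p = 0.028). Hadhb, which carries the long-chain thiolase, was at 270.2 and 258 CPM in Ctrl and 342 and 345 CPM in WC1 (0.38 ± 0.08, adjusted p = 0.034), with 18.1% of its windows shared with the predicted gene Gm13910. All 3 were above Ctrl in both WC1 libraries. The head-to-head partner Hadha, which carries the hydratase and dehydrogenase of the same complex, had a log2 fold change of 0.22 ± 0.10 and was not called (adjusted p = 0.17, limma), its WC1 libraries lying at 375 and 323 CPM. Its value was 0.33 without WC1 2 and 0.12 without WC1 1, each fit having 1 WC1 library. Whether Hadha and Hadhb differed in their change was not tested. Acaa2, the mitochondrial thiolase, was at 97.1 and 88.8 CPM in Ctrl and 112 and 114 CPM in WC1. Its log2 fold change of 0.28 ± 0.07 was just outside the threshold in limma (adjusted p = 0.061), and it was called higher by DESeq2 (adjusted p = 0.025).

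The auxiliary enzymes shift or reduce the unsaturated bonds of acyl chains so that these can pass through the cycle, and 4 of 5 were called higher. Eci1, a mitochondrial enoyl-CoA isomerase, was at 41.3 and 41.6 CPM in Ctrl and 61.1 and 71.9 CPM in WC1 and rose by 0.67 ± 0.10 (adjusted p = 0.021, limma). Decr1, the mitochondrial dienoyl-CoA reductase, was at 136 and 137 CPM in Ctrl and 197 and 209.6 CPM in WC1 (0.57 ± 0.07, adjusted p = 0.017). Ech1, the dienoyl-CoA isomerase, was at 229 and 232 CPM in Ctrl and 294 and 320.0 CPM in WC1 (0.41 ± 0.08, adjusted p = 0.034). These genes had nearly equal levels in the Ctrl libraries and higher ones in both WC1 libraries. Eci2, an isomerase found in peroxisomes and mitochondria, was at 58.2 and 59.4 CPM in Ctrl and 71.6 and 71.3 CPM in WC1 (0.28 ± 0.06, adjusted p = 0.045, limma). Decr2, the peroxisomal counterpart of Decr1, was at 30.4 and 29.7 CPM in Ctrl and 27.2 and 26.5 CPM in WC1, and its log2 fold change of -0.16 ± 0.07 was not called (adjusted p = 0.18).

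The 3 genes of electron transfer from the dehydrogenases to ubiquinone were called higher, Etfb only narrowly. Etfa, the alpha subunit of the electron transfer flavoprotein, was at 146 and 152 CPM in Ctrl and 211 and 222 CPM in WC1 and rose by 0.54 ± 0.07 (adjusted p = 0.019, limma). Etfdh, the membrane-bound oxidoreductase that takes electrons from the flavoprotein, was at 84.5 and 90.0 CPM in Ctrl and 121 and 123 CPM in WC1 (0.48 ± 0.07, adjusted p = 0.020). Etfb, the beta subunit, was at 128 and 132 CPM in Ctrl and 156 and 165 CPM in WC1 (0.30 ± 0.07, adjusted p = 0.047, limma), and 43.8% of its windows are shared with the predicted gene Gm45233. The call of Etfb did not hold by edgeR (adjusted p = 0.057) or in limma with no filter on low values (0.062). With a library left out, the value of Etfb ranged from 0.26 to 0.34. Both WC1 libraries exceeded both Ctrl libraries in each gene.

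Of the 6 peroxisomal enzymes of beta-oxidation, 4 were called higher. Ehhadh (chromosome 16, 21761285 to 21787834, mm10) encodes the L-bifunctional protein, a hydratase and dehydrogenase of the peroxisome, and was at 17.8 and 20.5 CPM in Ctrl and 40.0 and 55.1 CPM in WC1. It rose by 1.26 ± 0.17 (adjusted p = 0.019, limma), a 2.39-fold change. Hsd17b4, the D-bifunctional protein that acts at the same steps, was at 265 and 274 CPM in Ctrl and 396 and 423 CPM in WC1 and rose by 0.60 ± 0.08 (adjusted p = 0.019, limma). Both genes of these steps were thus higher, the less abundant gene by the larger fold. The peroxisomal thiolases Acaa1a and Acaa1b lie near each other on chromosome 9 (119341028 to 119350296 and 119148043 to 119157093, mm10). Acaa1b was at 52.7 and 51.2 CPM in Ctrl and 99.8 and 104 CPM in WC1 and rose by 0.96 ± 0.07 (adjusted p = 0.0086, limma), whereas Acaa1a was at 104 and 99.1 CPM in Ctrl and 107 and 121 CPM in WC1 and was not called (0.17 ± 0.09, adjusted p = 0.22). The value of Acaa1a depended on the WC1 library, at 0.26 without WC1 1 and 0.08 without WC1 2, each fit having 1 WC1 library. The copies share sequence, 30.5% of the windows of Acaa1b and 12.4% of those of Acaa1a, and how the counting treated shared reads is not given. Summed into 1 row, they came to 156 and 150.3 CPM in Ctrl and 207 and 225 CPM in WC1, a log2 fold change of 0.49 ± 0.08 (adjusted p = 0.024). Scp2, whose long form is the thiolase for branched chains, was at 375 and 374 CPM in Ctrl and 484 and 566 CPM in WC1 and rose by 0.48 ± 0.11 (adjusted p = 0.042, limma), with 29.7% of its windows shared with Scp2-ps2. Acox3, an oxidase for branched chains, had a log2 fold change of -0.08 ± 0.07 in CPM (adjusted p = 0.46, not called) and 0.06 in TPM.

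Among 7 genes of peroxisomal transport, acyl transfer, thioester hydrolysis and peroxisome growth, 3 were called higher. Abcd2 (chromosome 15, 91145871 to 91192007, mm10), a transporter of very long acyl-CoA into peroxisomes, was at 137 and 155 CPM in Ctrl and 295 and 364 CPM in WC1. It rose by 1.16 ± 0.13 (adjusted p = 0.015, limma), a 2.24-fold change. Its relative Abcd3 had a log2 fold change of 0.19 ± 0.08 and was not called (adjusted p = 0.15, limma). Crat, carnitine acetyltransferase, was at 186 and 193 CPM in Ctrl and 246 and 244 CPM in WC1 and rose by 0.37 ± 0.07 (adjusted p = 0.031, limma), while the octanoyltransferase gene Crot had 0.07 ± 0.07 (adjusted p = 0.50). Pex11a, which takes part in peroxisome elongation and division, was at 7.27 and 7.52 CPM in Ctrl and 10.4 and 14.0 CPM in WC1 (0.64 ± 0.15, adjusted p = 0.049). Its WC1 libraries were far apart and its call was at the edge of the threshold. With a library left out, its value ranged from 0.45 to 0.83. The thioesterase genes Acot2 and Acot8 were not called. Acot2 was at 8.48 and 8.26 CPM in Ctrl and 10.7 and 9.01 CPM in WC1 (0.20 ± 0.12, adjusted p = 0.26, limma), and summed with Acot1, which holds 24.5% of its windows, it had 0.09 ± 0.11 (adjusted p = 0.57). Acot8, which is peroxisomal, had -0.19 ± 0.09 (adjusted p = 0.20).

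For branched-chain fatty acids, Phyh, the phytanoyl-CoA hydroxylase of alpha-oxidation, was at 61.5 and 67.1 CPM in Ctrl and 79.8 and 91.1 CPM in WC1 and rose by 0.40 ± 0.09 (adjusted p = 0.047, limma). With a library left out, its value ranged from 0.31 to 0.50. Amacr, the racemase that prepares branched chains for oxidation, was at 8.36 and 9.54 CPM in Ctrl and 10.3 and 10.1 CPM in WC1, and was not called (0.17 ± 0.11, adjusted p = 0.30, limma).

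By compartment, 12 of 20 mitochondrial genes were called higher, with a median log2 fold change of 0.37, and 7 of 13 peroxisomal genes, with a median of 0.40, against 10.2% of all tested genes called higher. A further 4 of 5 genes placed in both compartments or of debated place were called. The medians lay close together, while the peroxisomal genes covered the wider range, from -0.19 to 1.26 against -0.15 to 0.80. A difference between compartments was not tested.

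Levels between genes were compared in TPM, which is corrected for transcript length. Ech1 had the highest level in both groups, 389 ± 5.35 TPM in Ctrl and 572 ± 47.3 TPM in WC1 (SD, n = 2), and Ppara the lowest, 0.794 ± 0.107 and 1.15 ± 0.236 TPM. In Ctrl the next levels were 277 ± 7.42 TPM for Etfb and 270.0 ± 1.72 TPM for Scp2, which differed by less than the SD of Etfb, followed by 249 ± 7.04 TPM for Acadm, 248 ± 6.64 TPM for Hadhb and 239 ± 3.72 TPM for Acadl. The means of Acadm and Hadhb differed by less than the SD of either. In WC1 Acadm moved to rank 2 of the 39, at 444 ± 24.1 TPM, within the SD of Scp2 at 418 ± 55.2 TPM. Acaa1b moved from rank 24 (59.8 ± 0.793 TPM) to rank 17 (130 ± 7.0 TPM) and Abcd2 from rank 26 (50.7 ± 4.83 TPM) to rank 20 (126 ± 21.6 TPM). Cpt1a was at 128 ± 4.68 TPM in Ctrl and 128 ± 19.0 TPM in WC1 and moved from rank 11 to rank 19. The WC1 means of Acaa1b, Cpt1a and Abcd2 differed by less than the SD of any of them, so their order in WC1 is not settled.

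**Figure D3:**
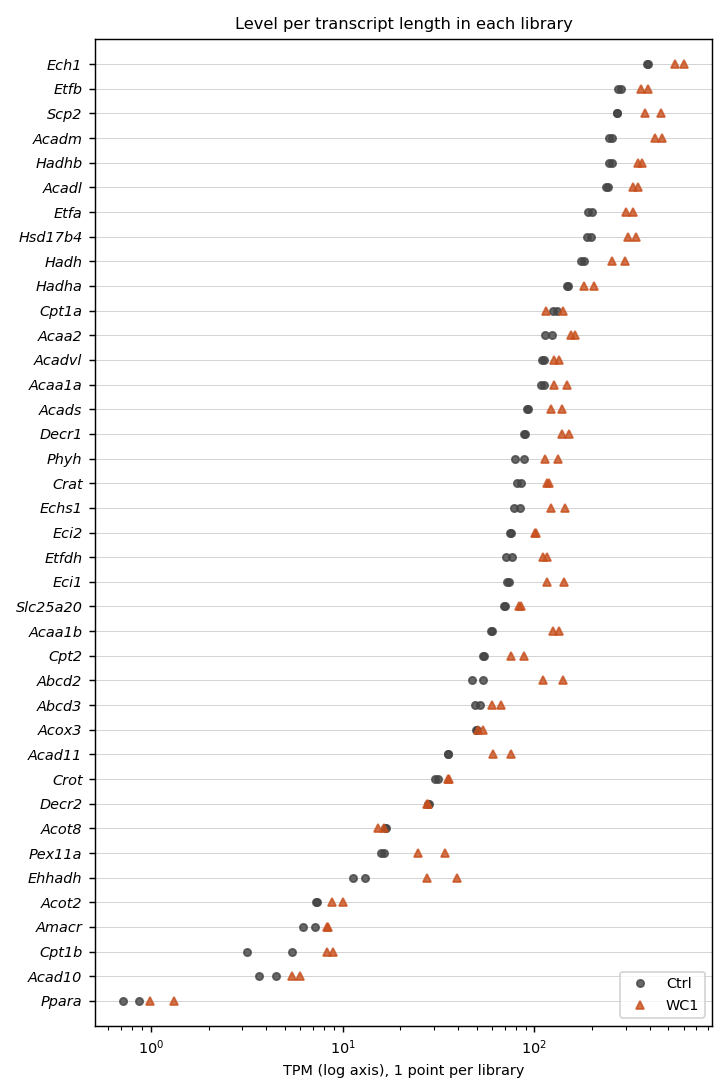
TPM (log axis) of the 39 genes in each library, with Ctrl as grey circles and WC1 as orange triangles, sorted by the Ctrl mean. Levels run from under 1 TPM for Ppara in Ctrl to 605 TPM for Ech1 in WC1 2, and the gap between the groups is widest for Ehhadh and Abcd2.

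Ratios of TPM within a library showed how related genes stood to each other. The ratio of Acaa1b to Acaa1a was 0.536 and 0.544 in Ctrl and 0.981 and 0.908 in WC1, so the copies were at nearly equal levels in WC1. The ratio of Abcd2 to Abcd3 was 0.907 and 1.10 in Ctrl and 1.84 and 2.11 in WC1. That of Ehhadh to Hsd17b4 was 0.0598 and 0.0666 in Ctrl and 0.0899 and 0.116 in WC1, so Hsd17b4 was by far the more abundant of the bifunctional enzymes in every library. Cpt1a exceeded Cpt1b by 24.1-fold and 39.2-fold in Ctrl and by 15.9-fold and 13.8-fold in WC1. The ratio of Hadha to Hadhb was 0.592 and 0.609 in Ctrl and 0.584 and 0.498 in WC1, and that of Etfb to Etfa was 1.42 and 1.41 in Ctrl and 1.20 and 1.20 in WC1. No pair had overlapping groups, which is common with 2 libraries a group (69.3% of all tested genes in CPM), and no background was computed for ratios. Together, the 39 genes took 0.398% and 0.402% of all TPM in Ctrl and 0.567% and 0.620% in WC1.

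Further genes in or next to the pathway, not all of them part of fatty acid oxidation itself, were taken from 9 lists with 73 genes. Of these, 66 were tested, 21 were called higher and 1 was called lower, with a median log2 fold change of 0.26. This is to be read against 10.2% of all tested genes called higher and 7.71% called lower. The lists are short, and in some, such as the regulators at 12.5%, the share called was near that background. These calls, too, rest on 2 libraries per group. At the entry to the pathway, 2 of 8 tested genes of acyl-CoA activation were called, Acsl1, the main long-chain acyl-CoA synthetase of adipocytes, and Acss2, the cytosolic acetyl-CoA synthetase. Acsl1 was at 815 and 891 CPM in Ctrl and 1391 and 1504 CPM in WC1 (0.76 ± 0.12, adjusted p = 0.024, limma), and Acss2 rose by 1.02 ± 0.09 (adjusted p = 0.012). Acacb, the acetyl-CoA carboxylase that makes malonyl-CoA, the inhibitor of carnitine-dependent entry, was at 27.0 and 28.0 CPM in Ctrl and 61.8 and 57.0 CPM in WC1 and rose by 1.08 ± 0.08 (adjusted p = 0.0087, limma). It was the only gene called of 4 in the list of the brake on carnitine entry and carnitine uptake, where Mlycd, which breaks malonyl-CoA down, had 0.33 ± 0.08 (adjusted p = 0.052) and Cpt1c had -0.34 ± 0.12 (adjusted p = 0.10).

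Of 8 transcriptional regulators, Pparg, the master regulator of adipocytes, was called higher (0.41 ± 0.08, adjusted p = 0.033, limma) and 7 were not called, among them the coactivator gene Ppargc1a (0.48 ± 0.18, adjusted p = 0.13). In the ketone body and acetyl-CoA branch, 2 of 4 tested genes were called higher: Oxct1, which starts ketone body use (0.47 ± 0.10, adjusted p = 0.038, limma), and Acat1, the acetoacetyl-CoA thiolase (0.58 ± 0.11, adjusted p = 0.033). In the propionyl-CoA branch, which takes up the end of odd chains among other sources, 3 of 4 genes were called higher. They were Pcca, Pccb and Mmut, at log2 fold changes of 0.62, 0.61 and 0.55. Among other genes of the dehydrogenase and hydratase families, 4 of 9 were called higher, Acad9 (0.38), Ivd (0.54), Echdc1 (0.75) and Echdc3 (0.54).

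Of 7 tested genes in the list of other thioesterases and CoA hydrolases, Nudt7, a peroxisomal CoA hydrolase, rose by 0.80 ± 0.11 (adjusted p = 0.020, limma). Acot7, a cytosolic thioesterase, was the 1 gene called lower. It was at 87.6 and 83.4 CPM in Ctrl and 55.2 and 52.9 CPM in WC1, a log2 fold change of -0.65 ± 0.07 (adjusted p = 0.014, limma). Among other peroxisomal oxidation genes, 2 of 7 tested were called higher, including Hacl1, the lyase of alpha-oxidation (0.74 ± 0.10, adjusted p = 0.019, limma). Cat, the catalase that breaks down the hydrogen peroxide formed by the oxidases, had a log2 fold change of -0.20 ± 0.10 (adjusted p = 0.20, limma). Of 15 peroxins, which build peroxisomes and import their proteins, 5 were called higher, Pex2, Pex5, Pex13, Pex16 and Pex19. Pex2, a ubiquitin ligase of the import machinery, was at 10.7 and 9.95 CPM in Ctrl and 34.9 and 34.2 CPM in WC1 and rose by 1.65 ± 0.09 (adjusted p = 0.0044, limma). Pex5, the import receptor, was at 31.9 and 27.8 CPM in Ctrl and 68.4 and 72.5 CPM in WC1 and rose by 1.21 ± 0.09 (adjusted p = 0.0088). Both were at more than 2-fold of their Ctrl level, while the other 3 rose by between 0.33 and 0.54.

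Markers of several cell types also differed between the groups, some higher and some lower in WC1. All 12 white adipocyte markers had both WC1 libraries above both Ctrl libraries and 9 were called higher; their summed level was 11153 and 12657 CPM in Ctrl and 20355 and 26087 CPM in WC1. All 12 macrophage markers were lower in both WC1 libraries than in both Ctrl libraries and 5 were called lower, with summed levels of 21447 and 19155 CPM in Ctrl and 12921 and 8115 CPM in WC1. Of 8 fibroblast markers 3 were called lower (sums of 9046 to 9351 CPM in Ctrl and 6386 to 8211 CPM in WC1), and of 6 endothelial markers 4 were called higher (418 to 457 CPM in Ctrl and 788 to 1015 CPM in WC1). Of all tested genes, 32.7% had both WC1 libraries above both Ctrl libraries and 36.6% had both below, while 10.2% were called higher and 7.71% lower. In bulk tissue, fewer cells of a type and less RNA per cell cannot be told apart. The part of these shifts in the change of the oxidation genes was not tested.

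**Figure D4:**
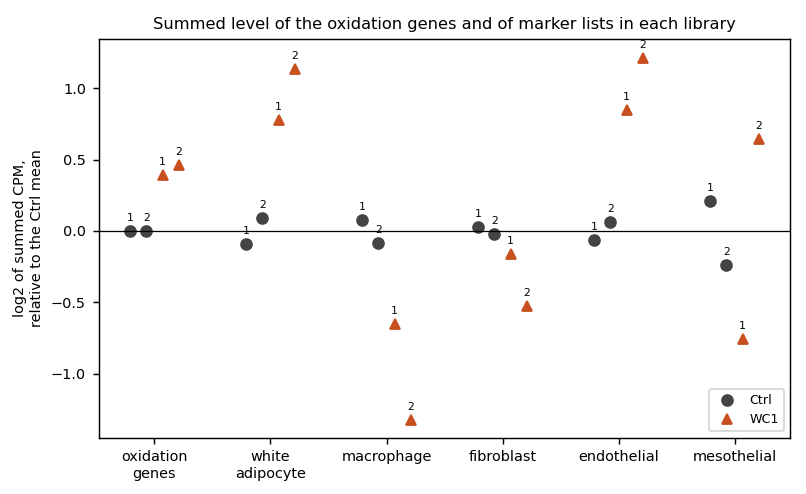
Summed CPM of the 39 oxidation genes and of 5 lists of cell type markers in each library, as log2 relative to the mean of the Ctrl libraries (Ctrl, grey circles; WC1, orange triangles; the numbers are the replicates). The oxidation genes and the adipocyte and endothelial lists are above 0 in both WC1 libraries, the macrophage and fibroblast lists are below 0 in both, and the mesothelial list is below 0 in WC1 1 (56.5 CPM) and above 0 in WC1 2 (149 CPM).

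The summed level of the oxidation genes was 4456 and 4458 CPM in Ctrl and 5847 and 6145 CPM in WC1, which was a smaller rise than that of the adipocyte markers. The ratio of the oxidation sum to the adipocyte marker sum was 0.399 and 0.352 in Ctrl and 0.287 and 0.236 in WC1, without overlap. The ratio to the macrophage marker sum was 0.208 and 0.233 in Ctrl and 0.453 and 0.757 in WC1, also without overlap. These are ratios of sums, to which the most abundant genes contribute most, and they do not describe each member. No background was computed for them, and 69.3% of all tested genes had no overlap in CPM in either direction.

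Of the other lists, brown or beige adipocyte markers were scarce. Ucp1, which uncouples respiration in brown adipocytes, was at most 0.263 CPM, Zic1 was at 0 in all libraries, and of 5 tested genes Elovl3 was called higher and Dio2 lower (sums of up to 15.5 CPM). Of 7 skeletal muscle markers 2 were tested and Acta1 was called higher, at 5.76 and 8.10 CPM in Ctrl and 17.2 and 16.4 CPM in WC1, while Ckm was at most 0.205 CPM. None of 5 mesothelial markers and none of 7 lymphocyte markers was called, the lymphocyte sum being highest in WC1 2 (27.2 CPM, against 4.70 to 9.27 CPM in the other libraries). Of 6 markers of epididymis epithelium 5 were at 0 in every library, and Adam7 was at 3.02 CPM in WC1 1.

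**Figure D5:**
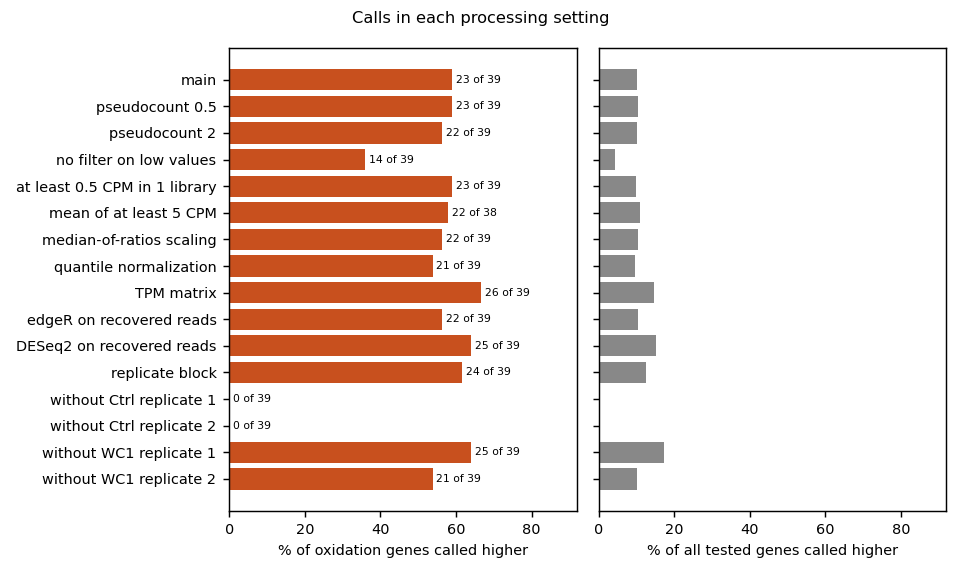
Share of the 39 oxidation genes (left, orange) and of all tested genes (right, grey) called higher in WC1 under the main processing and 15 alternatives. Between 14 and 26 of the oxidation genes were called in each setting that kept all 4 libraries. In a setting that leaves out a library, 1 group has 1 library, and its bar is not comparable with the others.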

How the data were processed

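Poly(A) RNA was made into directional libraries. Per the labels, the submitters' processing notes name fastp, HISAT2, StringTie and build mm10 (counter, annotation and strand setting: not given in the sources used here). Members with exons overlapping another gene on the opposite strand are therefore uncertain, called members (Acaa1b with Dlec1, Acad11 with Ackr4, Crat with Dolpp1, Echs1 with Paox, Eci2 with Gm16984, Etfdh with 4930579G24Rik) as well as uncalled ones such as Acaa1a with Myd88 and Hadha with Garem2. The deposited signal matrix holds the authors' CPM, reads relative to a rescaled library size (columns at 97.6% to 105% of the plain CPM sum), from which whole reads were recovered (100% of values within 0.01 read). The authors also deposited TPM. Totals were 61465029 to 90965297 reads, and 3 reads equal 0.0345 to 0.0492 CPM, for counting error only.

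Genes with at least 0.5 CPM in 2 libraries were tested with limma 3.58.1 (R 4.3.3, trended variance, two-sided, no covariates) on log2(CPM + 1), which understates the change of low genes, with Benjamini-Hochberg adjustment. Groups came from the titles. The titles do not say that the libraries are separate animals, so p-values measure only the spread between these samples, which may be technical. A single gene cannot go below an exact permutation p of 0.333. Alternatives were pseudocounts, filters, scalings, TPM, edgeR 4.0.16 and DESeq2 1.42.0 on recovered reads, a replicate block and leaving out each library. Scripts were tested on simulated data. Summing Acaa1a with Acaa1b and Acot1 with Acot2 was added after seeing the data.

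The members and lists were chosen with earlier results of these data known. All 39 members could be named; values by library were given for those called and for the uncalled member with the largest change in each role. In the other lists, called genes and the 2 uncalled genes with the largest change could be named. The libraries given for Hadha, Acsl1 and markers, and the marker genes named, were chosen after their values were seen. Promoters and gene positions came from RefSeq (GRCm38.p6), and exon overlaps and shared 50-base windows from GENCODE M21. Promoters of Abcd2, Acaa2, Amacr, Cpt1b, Crat, Decr1 and Hsd17b4, and protein sequences, were not analysed here. Results for some genes of the pathway lists are not reported here.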

Additional observations from a re-analysis of the deposited data

How the results depend on the processing

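Of 584 member values over 15 alternatives, 508 kept direction and side of the threshold, 64 lost their call (49 of them when a library was left out), 10 gained one and 2 changed sign. The sign changes were Cpt1a without WC1 2 (log2 fold change 0.03) and Acox3 in TPM (0.06), neither called. In TPM the all-gene median moved up by 0.12, the member median was 0.51 (0.40 above the all-gene median, against 0.39 in CPM), and 77.9% of all calls were higher, against 57.0% in CPM, with 26 members called, Slc25a20, Hadha and Acaa2 in addition. Relative to the all-gene median in TPM, Acox3, Decr2, Acot8 and Cpt1a were at -0.05, -0.12, -0.17 and -0.11. Without a filter on low values, 18132 genes were tested, and 14 members (4 of them peroxisomal), 12 further pathway genes and 788 of all genes were called higher and 532 lower. Without that filter 9 called members lost their call, namely Acads, Acadl, Hadhb, Eci2, Ech1, Etfb, Scp2, Pex11a and Phyh. Genes called lower numbered 583 in TPM and 1736 by DESeq2. With each library left out in turn, the members called higher ranged from 0 to 25 and those called lower from 0 to 1 (Cpt1a, at -0.32 without WC1 1), mitochondrial members from 0 to 14, peroxisomal members from 0 to 8, further pathway genes from 0 to 26 higher and 0 to 5 lower, all genes from 2 to 2424 higher and 4 to 2748 lower, and the member median from 0.33 to 0.44. The fewest calls came without Ctrl 1 or Ctrl 2. Of the 23 called members, 14 were called in every one of the 11 alternatives that kept all 4 libraries, whereas Pex11a lost its call in 8 of the 15 and Etfb and Phyh in 5. The replicate numbers are not known to pair the libraries (correlation of deviations 0.19, 2 pairs); with a replicate block 24 members were called higher, against 12.5% of all genes, and 2 further pathway genes lower, as by DESeq2. With 2 libraries per group, the spread between libraries rather than read depth limits the member values.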
